A study of Mus musculus with 14 samples.

Results

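Heat-shock proteins and co-chaperones were followed across 14 arrays of mouse peritoneal cells through 10 genes: Hspb1, Hsph1, Hspa1a, Hspa1b, Hspa8, Dnajb1, Hsp90aa1, Hspd1, Hspe1 and Hsf1. A probe set was a member when the platform annotation gave it exactly 1 gene symbol and that symbol was one of the 10. The rule found 22 of 45037 probe sets, for 9 of the 10 genes; in all, 18193 genes had a probe set of their own. No probe set carried Hsf1 as its only symbol in the annotation used here, so Hsf1 was not analysed. Of the 22, 20 passed the filter on dim probe sets; the 2 that did not were both for Hsp90aa1, with signals of 0.9 to 93.8 and of 3.1 to 120.3 over the 14 arrays. Each gene is described by its probe set with the highest mean, and other probe sets are given where they were called or differ.

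The cells came from female C57Bl/6 x C3H F1 mice aged 12 to 16 weeks and were labelled as peritoneal macrophages. Naive mice gave 2 arrays, and mice challenged with LPS alone, also 60 µg per mouse, gave 3. The other 9 arrays were of mice given SMD, 3 for each of 100, 200 and 300 mg/kg, as 50 µl on the nares under halothane, 30 min before 60 µg of ultra pure Salmonella minnesota LPS was injected into a tail vein. The labels put the SMD groups at 2 hours after LPS. They do not state the time for LPS alone, the vehicle or what SMD stands for. The 50 µl volume and the 30 min interval are given for the SMD groups only. Any effect of the dosing procedure therefore cannot be told apart from that of SMD. No group received SMD without LPS, and the 3 doses share the same 3 LPS arrays as their comparison. The labels call the LPS and SMD arrays biological replicates and the 2 naive arrays only replicates. They do not say whether each was 1 mouse or a pool, so p-values measure the spread between these samples only.

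Heat-shock proteins are molecular chaperones that bind unfolded or misfolded proteins. Hspb1 is a small heat-shock protein that holds unfolded clients without using ATP, Hspa1a and Hspa1b are the stress-inducible Hsp70s, Hspa8 is the constitutive Hsp70, and Dnajb1 and Hsph1 are Hsp70's J-domain partner and nucleotide exchange factor. Hsp90aa1 is the inducible cytosolic Hsp90, and Hspd1 and Hspe1 together form the mitochondrial chaperonin. The transcription factor Hsf1 drives the inducible members through heat-shock elements, which are GAA units in alternating orientation.

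RefSeq promoter windows (build GRCm38.p6, 250 bases before to 50 after a start site) were found for 7 of the 10 genes, in 10 windows; 3 genes (Hspa8, Hsp90aa1 and Hsf1) had none. The windows of 4 genes are shown, with matches to a pair of alternating units in capitals. A pair is GAANNTTC or TTCNNGAA, and each of these reads the same on both strands. The windows are chr5:135887669-135887968 on the plus strand for Hspb1, chr5:149636266-149636565 on the minus strand for Hsph1 (1 of its 2 windows), chr17:34959189-34959488 on the minus strand for Hspa1b, and chr1:55087898-55088197 on the plus strand for Hspe1. Hspb1 and Hsph1 are shown for their peak at 200 mg/kg, Hspa1b for its rise with dose, its window standing also for the near-identical one of Hspa1a, and Hspe1 for the region it shares with Hspd1, which fell at 300 mg/kg.
Hspb1: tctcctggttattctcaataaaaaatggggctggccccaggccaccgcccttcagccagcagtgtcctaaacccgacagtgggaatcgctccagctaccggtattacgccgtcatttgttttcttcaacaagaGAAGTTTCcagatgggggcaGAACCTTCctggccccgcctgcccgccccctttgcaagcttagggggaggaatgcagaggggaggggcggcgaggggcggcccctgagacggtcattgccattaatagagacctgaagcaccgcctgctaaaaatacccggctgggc
Hsph1: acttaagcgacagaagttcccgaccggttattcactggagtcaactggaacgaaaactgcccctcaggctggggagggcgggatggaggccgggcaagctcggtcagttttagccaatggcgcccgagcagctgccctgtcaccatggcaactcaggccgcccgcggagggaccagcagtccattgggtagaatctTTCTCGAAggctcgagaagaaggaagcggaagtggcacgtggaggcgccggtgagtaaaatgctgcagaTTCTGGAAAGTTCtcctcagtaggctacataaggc
Hspa1b: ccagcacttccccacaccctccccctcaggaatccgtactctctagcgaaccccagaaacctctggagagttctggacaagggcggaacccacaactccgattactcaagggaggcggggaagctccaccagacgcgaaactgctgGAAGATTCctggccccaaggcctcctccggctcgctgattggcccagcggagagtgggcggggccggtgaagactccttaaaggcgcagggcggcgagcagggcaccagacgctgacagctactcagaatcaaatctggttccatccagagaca
Hspe1: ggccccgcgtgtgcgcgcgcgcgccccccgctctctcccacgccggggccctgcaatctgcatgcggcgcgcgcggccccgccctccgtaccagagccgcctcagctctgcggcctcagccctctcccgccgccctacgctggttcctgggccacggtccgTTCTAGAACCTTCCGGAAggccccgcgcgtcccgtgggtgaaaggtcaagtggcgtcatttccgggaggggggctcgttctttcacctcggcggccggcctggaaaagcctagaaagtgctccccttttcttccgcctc

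Of the 10 windows, 7 (of 6 genes) held at least 1 pair, against 15.1% of all 32851 windows of this length. A run of 3 alternating units (GAANNTTCNNGAA, or TTCNNGAANNTTC on the other strand; each such run also counts as overlapping pairs) was found in 4 of the 10, those of Hsph1 (both), Hspd1 and Hspe1, against 0.603% of all windows; the Hsph1 windows overlap each other, as do those of Hspd1 and Hspe1. Hspb1 had pairs 117 to 110 and 97 to 90 bases before its start, and Hspa1a and Hspa1b had the same pair 104 to 97 bases before theirs. The Hspa1a and Hspa1b windows differed at 4 of 300 positions and were 98.7% identical. Hspd1 and Hspe1 are head to head: an Hspd1 window, chr1:55087883-55088182 on the minus strand, shares 285 positions with the Hspe1 window on the opposite strand and so holds the same run of units. Neither Dnajb1 window held a pair, which says only that these letters are not in those windows. A match is a description of sequence, and no binding was measured.

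Signals are the deposited MAS5 intensities, scaled so that the trimmed mean was 500 on each array, and array medians ran from 65.1 to 84.8. Probe sets bind with different strength, so the level of a probe set is compared between groups. Sums of marker probe sets and within-array differences of 2 probe sets are likewise compared only between groups. Bright probe sets weigh most in the sums. The ratio of the 3' to the 5' actin control, a measure of how far labelled RNA reaches from the 3' end, averaged 2.95 ± 0.146 in naive (SD, n = 2), 3.32 ± 2.21 in LPS, 6.21 ± 4.73, 9.81 ± 0.864 and 14.02 ± 6.24 at 100, 200 and 300 mg/kg (SD, n = 3). It therefore moved with dose. The highest ratio among LPS arrays was 5.86, in replicate 2, and the highest at 100 mg/kg was 11.6, also in replicate 2. The same ratio for Gapdh was 6.78 and 8.87 on naive arrays, 4.54, 92.05 and 16.8 on LPS arrays, 30.01, 74.2 and 20.96 at 100 mg/kg, 86.0, 114.5 and 67.0 at 200 mg/kg and 32.2, 65.0 and 178.7 at 300 mg/kg, so LPS replicate 2 lay among the SMD arrays and 300 mg/kg replicate 1 below all 200 mg/kg arrays. A fit with the actin ratio as a covariate is given beside results whose calls changed under it; the Gapdh ratio was not fitted, and the part of either in the results was otherwise not tested. Summed signals of 10 macrophage markers ran from 117600 to 153800 over all arrays. Those of 7 neutrophil markers were 1423 to 1594 in naive, 17660 to 21590 in LPS and 35050 to 45520 at 300 mg/kg. Most of that sum was S100a8 and S100a9, with group means of 11070 and 6954 in LPS and 22890 and 14770 at 300 mg/kg. Ngp was at 1146 and 1181 in those groups and Camp at 266.9 and 258.8. Over all arrays the summed signals of 5 B-cell markers ran from 13870 to 48510 and those of 6 mast-cell markers from 41630 to 53440. Macrophages were therefore not the only cells in the samples.

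**Figure D1:**
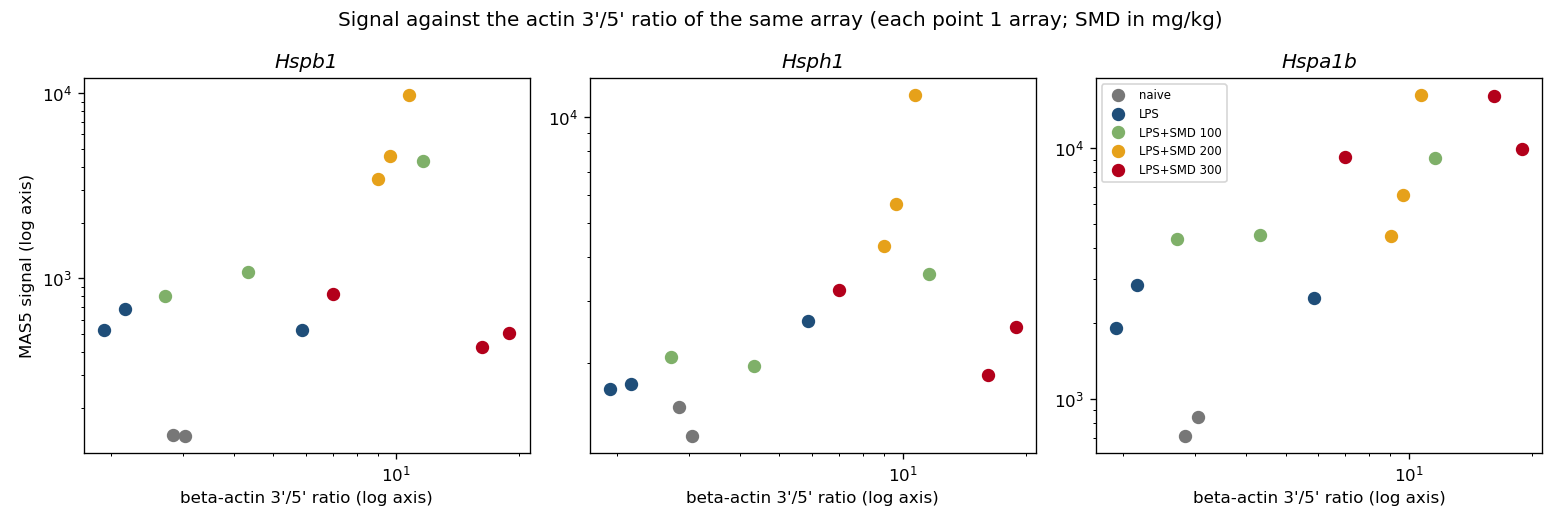
Signal of Hspb1, Hsph1 and Hspa1b (brightest probe sets, log axis) against the actin 3'/5' ratio of the same array (log axis), 1 point per array, coloured by group. The 4 highest Hspb1 signals, of the 3 arrays at 200 mg/kg and of 100 mg/kg replicate 2, lie at ratios of 9.03 to 11.6, while 2 arrays at 300 mg/kg with ratios of 16.2 and 18.9 have Hspb1 signals of 429 and 510.2.

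The first comparison, LPS against naive, described how these chaperones differed between challenged and naive mice. Of 9 member genes, 5 were called higher (adjusted p under 0.05 in limma) and 0 lower: Hspb1, Hspa1a, Hspa1b, Hspa8 and Hspd1. The share of all 27022 probe sets called higher was 10.3% and called lower 16.8%, and the median log2 difference of the 9 genes was 0.54 against -0.24 for all probe sets. By probe set, 13 of the 20 tested were called higher and 0 lower. Median scaling of the arrays moves the median of all probe sets to -0.11 and quantile normalization to -0.06, and it moves the share of calls that are increases from 37.9% to 47.8% and 48.2%. In bulk samples a change in RNA per cell and a change in the number of cells of a type cannot be told apart. Neutrophil markers rose here in 4 of 6 tested, mast-cell markers in 1 of 6 and red-cell markers in 1 of 2. Macrophage markers fell in 4 of 10 and B-cell markers in 3 of 5. The part of these markers in the chaperone differences was not tested.

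Hspb1 gave signals of 144 and 142 on the naive arrays and 526, 529 and 686 on the LPS arrays. Every LPS array was above both naive ones. The log2 difference was 1.90 ± 0.51 (SE; adjusted p = 0.00943, limma), 3.72-fold on the log2(signal + 16) scale used throughout. It was not called without naive replicate 1 or 2 (adjusted p = 0.0632 and 0.0662, limma). The second Hspb1 probe set gave 93.8 and 6.9 on naive arrays and 332 to 427 on LPS arrays.

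Hspa1b, the brighter probe set of the inducible Hsp70 pair, gave 715 and 846 on naive arrays and 1912, 2534 and 2848 on LPS arrays, with no overlap between the groups. Its difference was 1.61 ± 0.40 (adjusted p = 0.00574, limma). Hspa1a gave 253 and 315 against 838, 534 and 1061, again without overlap, a difference of 1.42 ± 0.50 (adjusted p = 0.042, limma). The Hspa1a call was lost without either naive array, LPS replicate 1 or 3, or replicate 1 of 200 mg/kg (adjusted p = 0.0532 to 0.219, limma). Because the 2 genes are near-identical copies, their probe sets may each detect both transcripts, and the split between Hspa1a and Hspa1b is uncertain.

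Hspa8 and the mitochondrial chaperonin rose by less. Hspa8 signals were 31022 and 35162 in naive and 43402, 52524 and 48670 in LPS (0.54 ± 0.15; adjusted p = 0.0109, limma), and all 4 of its probe sets were called higher. Hspd1 signals were 6553 and 6419 in naive and 11885, 11159 and 10051 in LPS, and its groups did not overlap (0.76 ± 0.17; adjusted p = 0.00223, limma). Its partner Hspe1, at 7257 and 6333 against 8739, 10999 and 9030, also showed no overlap and did not pass the test (0.49 ± 0.19; adjusted p = 0.0638, limma), though it did with the actin covariate (0.50; adjusted p = 0.0105, limma).

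For the remaining genes the brightest probe set did not pass. The difference was 0.53 ± 0.35 for Hsph1, 0.36 ± 0.18 for Hsp90aa1 and 0.14 ± 0.25 for Dnajb1, and Dnajb1 was the gene whose groups overlapped. Hsp90aa1 was called with the actin covariate (0.36; adjusted p = 0.0418, limma). A dimmer Dnajb1 probe set was called (1.19 ± 0.30; adjusted p = 0.00651, limma), as was a dimmer Hsp90aa1 one (0.98 ± 0.34; adjusted p = 0.0377, limma), so probe sets of these 2 genes disagree. With only 2 naive arrays the calls lean on each of them: 1 member gene was called without naive replicate 1 and 3 without naive replicate 2.

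SMD at 100 mg/kg was next set against LPS alone. No member gene was called, nor was any of the 27022 probe sets (percent called 0; smallest adjusted p 0.193 in limma, and 2428 probe sets at an unadjusted p under 0.05). Hspb1 signals were 1088, 4278 and 801 and Hspa1b signals 4504, 9110 and 4326, so each gene had all 3 arrays above all 3 LPS arrays. Replicate 2 was the highest for both, and it is the array with the high actin ratio. The log2 differences were 1.41 ± 0.46 for Hspb1 (adjusted p = 0.423, limma) and 1.22 ± 0.36 for Hspa1b (adjusted p = 0.375, limma). Without 100 mg/kg replicate 3, 1 gene was called, Hspb1 at 1.88 (adjusted p = 0.0402, limma).

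At 200 mg/kg, 4 of 9 member genes were called higher than in LPS and 0 lower, where 6.68% of all probe sets were called higher and 6.39% lower. They were Hspb1, Hsph1, Hspa1b and Hspe1. The median log2 difference of the 9 genes was 0.55 against -0.05 for all probe sets, and 9 of the 20 probe sets were called higher and 1 lower. Under median scaling, increases made up 61.1% of all calls in place of 51.1%. No neutrophil or B-cell marker was called in this comparison, 1 of 10 macrophage markers was lower (Itgam), and 2 of 4 T and NK (Cd3d and Cd3g) and 1 of 4 mesothelial and fibroblast markers (Dcn) were higher, as was 1 of 6 mast-cell markers, with 1 lower. Summed signals did not overlap LPS for neutrophil markers (28060 to 28310 against 17660 to 21590) or T and NK markers (1476 to 1920 against 724.8 to 977.8). Nor did those of mesothelial and fibroblast markers (537.7 to 1300 against 220.1 to 459.6). Dcn of that list had its highest group mean at 200 mg/kg, 539.9 against 134.1 in LPS, 246.8 at 100 mg/kg and 270.8 at 300 mg/kg. Most of the neutrophil sum was S100a8 and S100a9, with group means of 15130 and 11790 against 11070 and 6954 in LPS. Ngp was at 868.7 against 1146 and Camp at 217.1 against 266.9, and Mpo, Elane and Cxcr2 had means of 24.83 to 72.47. The part of any marker in the chaperone differences was not tested.

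Hspb1 had the largest difference of the 9. Its signals at 200 mg/kg were 4579, 3451 and 9709, every one above the highest LPS array at 686, and their mean was 5913 ± 3335 (SD, n = 3) against 580 ± 91.8. The difference was 3.18 ± 0.46 (adjusted p = 5e-04, limma), 9.07-fold, and the second probe set gave 3.20 ± 0.60. With the actin ratio as a covariate it was 2.47 ± 0.56 and still called (adjusted p = 0.0357, limma).

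Hsph1, the Hsp110 exchange factor, gave 5686, 4306 and 11535 at 200 mg/kg against 1687, 2639 and 1748 in LPS, without overlap. Its difference was 1.72 ± 0.31 (adjusted p = 0.00192, limma), 3.29-fold, with 1.62 ± 0.33 for its second probe set. Replicate 3 of this dose was the highest array for both Hspb1 and Hsph1. With the actin covariate Hsph1 was 1.28 and lost its call (adjusted p = 0.1, limma).

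Hspa1b gave 6519, 4456 and 16227 at 200 mg/kg, all above the LPS arrays, a difference of 1.69 ± 0.36 (adjusted p = 0.00581, limma), and 2.27 and 2.41 for its other 2 probe sets. Hspa1a, at 1528, 782 and 4047, overlapped LPS and was not called (1.10 ± 0.45; adjusted p = 0.113, limma); without replicate 2 of this dose it was (1.65; adjusted p = 0.0242, limma). Replicate 3 was again the highest for both. Under the actin covariate Hspa1b was 1.00 and not called (adjusted p = 0.277, limma).

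Hspe1 gave 14666, 11232 and 16681 at 200 mg/kg and was above LPS on every array, but by little (0.55 ± 0.17; adjusted p = 0.039, limma). It lost its call without either naive array, LPS replicate 1 or 3, or replicate 1 or 3 of this dose (adjusted p = 0.0524 to 0.166, limma), and with the actin covariate (0.15; adjusted p = 0.768, limma). Its dimmer probe set gave 0.21 ± 0.20. Its partner Hspd1, at 9728, 8971 and 12098, overlapped LPS (-0.11 ± 0.15).

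The other 3 genes did not pass at 200 mg/kg by their brightest probe sets. Hsp90aa1 gave 22930, 20111 and 26597 against 16505, 20675 and 13463 in LPS (0.47 ± 0.16; adjusted p = 0.062, limma), while a second probe set was called higher (0.81 ± 0.21; adjusted p = 0.0195, limma) and another gave -0.66 ± 0.30. Dnajb1 gave -0.60 ± 0.22 and Hspa8 -0.19 ± 0.13, and 1 dimmer Hspa8 probe set was called lower (-0.56 ± 0.14; adjusted p = 0.0129, limma).

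At 300 mg/kg the called set was different. Of 9 member genes, 2 were higher than in LPS (Hspa1a and Hspa1b) and 2 lower (Hspd1 and Dnajb1), where 13.8% of all probe sets were called higher and 13.7% lower. By probe set, 4 of the 20 were higher and 5 lower, and the median of the 9 genes was 0.13 against -0.03 for all probe sets. Called higher at this dose were 3 of 10 macrophage, 2 of 6 neutrophil, 2 of 5 B-cell, 3 of 4 T and NK and 1 of 6 mast-cell markers. Of macrophage markers, 1 was called lower. Summed signals lay above LPS without overlap for macrophage (136900 to 150800 against 130000 to 130800) and neutrophil markers (35050 to 45520 against 17660 to 21590). The same held for B-cell (28500 to 33560 against 24450 to 25830) and T and NK markers (2104 to 3348 against 724.8 to 977.8). For red-cell markers they lay below LPS (79.6 to 131.5 against 182.6 to 458.9). The part of any marker in the chaperone differences was not tested.

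Hspb1 was back at the LPS level, with signals of 826, 429 and 510.2 that straddled the LPS arrays. The difference was -0.02 ± 0.46 (95% interval -0.99 to 0.94; adjusted p = 0.978, limma), -0.27 ± 0.60 by the second probe set and -0.90 with the actin covariate (adjusted p = 0.418, limma). Hsph1, at 3234, 1855 and 2537, also overlapped LPS, with 0.32 ± 0.31 and an interval of -0.33 to 0.97, and its second probe set gave 0.0059 ± 0.33. These intervals do not show that the levels were equal, and they lie below the 200 mg/kg differences of both genes.

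Both inducible Hsp70 genes had their highest group mean at this dose; the highest single Hspa1b array, at 16227, was at 200 mg/kg. Hspa1b gave 9183, 16156 and 9935 against 1912 to 2848 in LPS, with no overlap (2.24 ± 0.36; adjusted p = 0.000145, limma), 4.72-fold, and its other probe sets gave 2.63 and 2.87. Hspa1a gave 2737, 4856 and 2534 against 534 to 1061, also without overlap (2.03 ± 0.45; adjusted p = 0.00214, limma), 4.07-fold. Both lost their calls with the actin covariate, at 1.39 for Hspa1b (adjusted p = 0.0577, limma) and 1.66 for Hspa1a (adjusted p = 0.109, limma), and in both genes replicate 2 was the highest array.

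Hspd1 lay below both LPS and naive arrays: its signals were 5765, 4355 and 5597, against 10051 to 11885 in LPS and 6419 to 6553 in naive. The difference from LPS was -1.08 ± 0.15 (adjusted p = 3.83e-05, limma), 2.11-fold lower, and it was called under the actin covariate too (-1.03; adjusted p = 0.00322, limma). Hspe1, which shares its promoter region, was at 9131, 10653 and 11581 and overlapped LPS (0.13 ± 0.17; adjusted p = 0.647, limma), with -0.19 ± 0.20 for its dimmer probe set. Within an array, Hspd1 minus Hspe1 on the log2 scale went from 0.21 ± 0.22 in LPS to -1.0 ± 0.32 at 300 mg/kg (SD, n = 3), and the 3 arrays of each group did not overlap.

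Dnajb1 gave 1368, 1112 and 1002 at 300 mg/kg, every one below the lowest LPS array at 1472 (-0.80 ± 0.22; adjusted p = 0.0103, limma). Its dimmer probe set gave 0.29 ± 0.27, with overlapping groups. The call was also lost without LPS replicate 1 (-0.64; adjusted p = 0.0715, limma), with the mean of both probe sets (-0.26; adjusted p = 0.417, limma) and with the actin covariate (-0.40; adjusted p = 0.456, limma). The decrease of Dnajb1 therefore rests on 1 probe set.

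Neither Hspa8 nor Hsp90aa1 was called by its brightest probe set at 300 mg/kg. Hspa8 was at 38438, 40689 and 43771, a difference of -0.23 ± 0.13 that was called with the actin covariate (-0.55; adjusted p = 0.0334, limma), with quantile normalization and with the mean of its probe sets, and 2 of its other 3 probe sets were lower (-0.38 and -0.56; adjusted p = 0.0208 and 0.00534, limma). Hsp90aa1 was at 17317, 20393 and 22085 (0.25 ± 0.16). The probe set of Hsp90aa1 that gave -0.66 at 200 mg/kg was 1559, 523 and 1119 against 2452 to 4310 in LPS and was called lower (-1.64 ± 0.30; adjusted p = 0.000477, limma), so the Hsp90aa1 probe sets differ in sign.

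**Figure D2:**
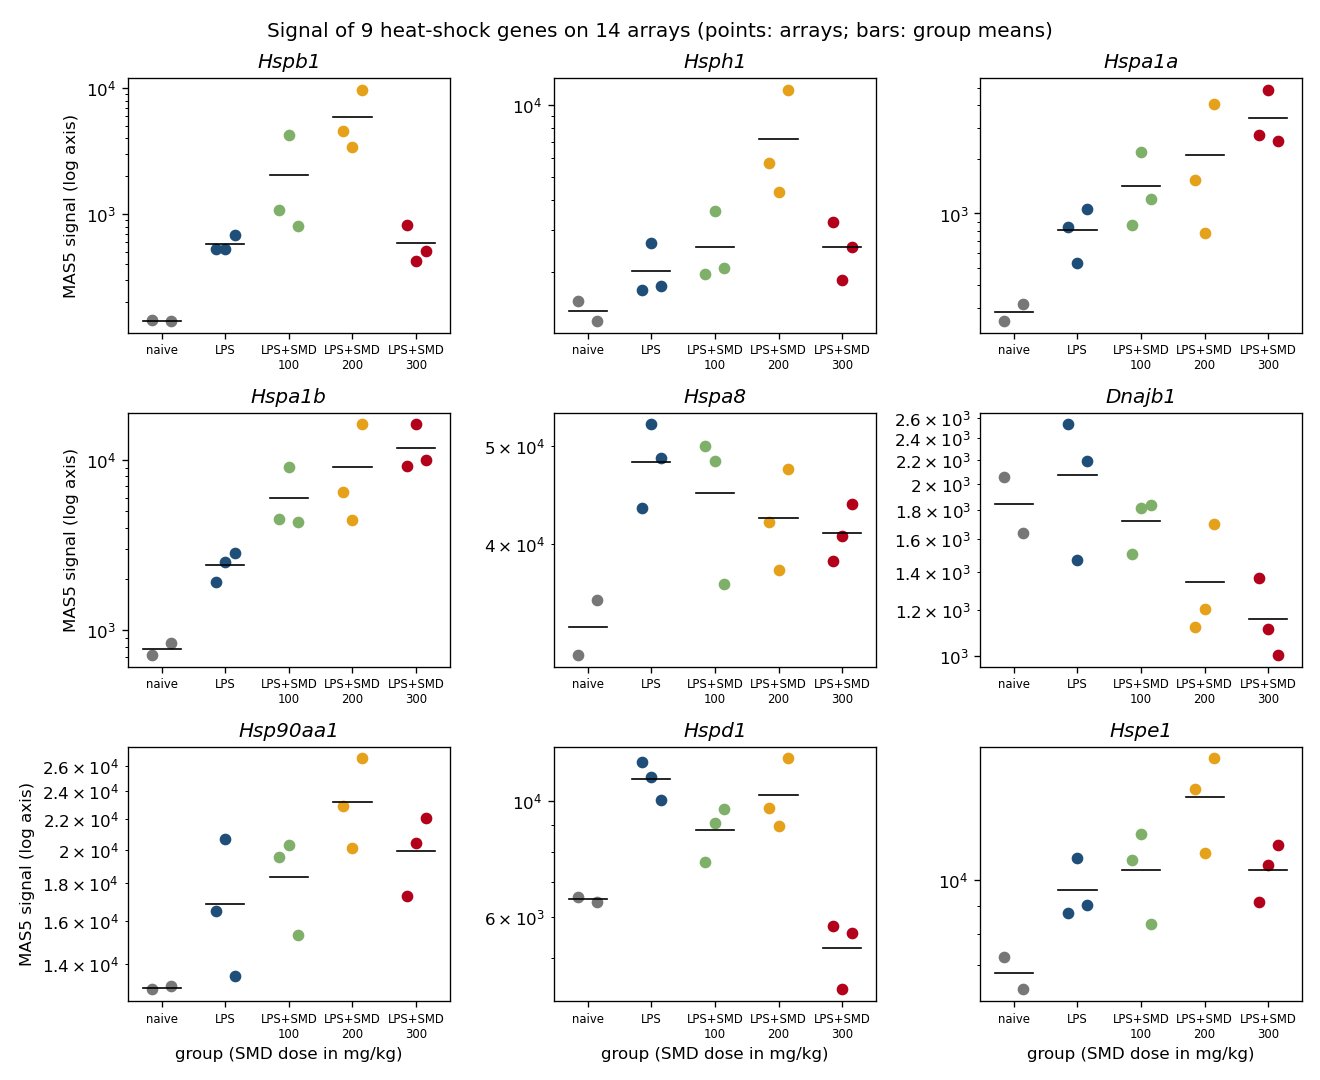
Signal of the brightest probe set of each of the 9 genes on every array, by group, on a log axis; points are arrays and bars are group means. Hspb1 and Hsph1 peak at 200 mg/kg, Hspa1a and Hspa1b are highest on average at 300 mg/kg, and the 3 Hspd1 arrays at 300 mg/kg lie below all others.

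The doses were then compared with each other. Between 100 and 200 mg/kg, 1 of 9 genes was called higher, Hsph1 (1.42 ± 0.31; adjusted p = 0.0328, limma), where 1.13% of all probe sets were called, 0.788% higher and 0.337% lower. Hspb1 gave 1.77 ± 0.46 (adjusted p = 0.0685, limma), and without 100 mg/kg replicate 2 it was called (2.50; adjusted p = 0.00818, limma). The Hsph1 call was lost without either naive array, without replicate 1 or 3 of 100 mg/kg and without any of the 200 mg/kg arrays, with adjusted p between 0.0515 and 0.137 in limma, and with the actin covariate (1.18; adjusted p = 0.075, limma).

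Between 200 and 300 mg/kg, 3 of 9 genes were called lower and 0 higher, where 5.07% of all probe sets were called, 2.02% higher and 3.05% lower. Hspb1 fell by 3.21 ± 0.46 on the log2 scale (adjusted p = 0.00165, limma), 9.23-fold, and its lowest array at 200 mg/kg, 3451, was above its highest at 300 mg/kg, 826. Hsph1 fell by 1.40 ± 0.31 (adjusted p = 0.0132, limma) and Hspd1 by 0.97 ± 0.15 (adjusted p = 0.00216, limma), neither with overlap. All 3 were called under the actin covariate as well, with -3.37, -1.5 and -0.96, and Hspe1 gained a call (-0.52; adjusted p = 0.0157, limma). Without 200 mg/kg replicate 3, or without 300 mg/kg replicate 2, Hsph1 lost its call (-0.99 and -1.19; adjusted p = 0.0856 and 0.101, limma). Hspa1b gave 0.55 ± 0.36 between these doses and Hspa1a 0.92 ± 0.45, neither called.

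The shape over dose was described by a straight line through 0, 100, 200 and 300 mg/kg and by a curvature term, the mean of the end doses minus that of the middle doses. Slopes were called in 2 genes upward and 2 downward, where 14.8% of all probe sets had a called rise and 15.2% a called fall. Per 100 mg/kg, Hspa1b rose by 0.72 ± 0.11 (adjusted p = 0.000105, limma) and Hspa1a by 0.64 ± 0.14 (adjusted p = 0.00182, limma). Hspd1 fell by 0.30 ± 0.05 (adjusted p = 0.000101, limma) and Dnajb1 by 0.28 ± 0.07 (adjusted p = 0.00502, limma). The actin ratio also rises along this line, and with it as a covariate the Hspa1b slope was 0.43 (adjusted p = 0.0806, limma) and the Hspa1a slope 0.52 (adjusted p = 0.135, limma), while the Hspd1 slope was -0.29 and called (adjusted p = 0.0111, limma), and Hspa8 gained a called slope of -0.19 (adjusted p = 0.0295, limma). The Dnajb1 slope was not called with the covariate (adjusted p = 0.426, limma) or with the mean of its probe sets (adjusted p = 0.407, limma).

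Curvature was called in 1 member gene, Hspb1, and in 0.0481% of all probe sets in either direction. In 0.037% of all probe sets the called term was negative, the middle doses averaging above the end doses. The Hspb1 term was -2.31 ± 0.32 (adjusted p = 0.0166, limma) and -2.22 with the actin covariate (adjusted p = 0.00412, limma). The call was lost when any of 3 arrays was left out, namely replicate 3 of LPS, replicate 1 of 100 mg/kg and replicate 2 of 300 mg/kg (adjusted p = 0.0574, 0.059 and 0.0814, limma). Hsph1 had the same sign at -0.85 ± 0.22 (adjusted p = 0.1, limma). Its slope was 0.24 and not called (adjusted p = 0.0765, limma), but called without replicate 2 of LPS or of any of the 3 doses (adjusted p = 0.0356 to 0.0496, limma). That of Hspb1 was 0.17 (adjusted p = 0.425, limma).

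**Figure D3:**
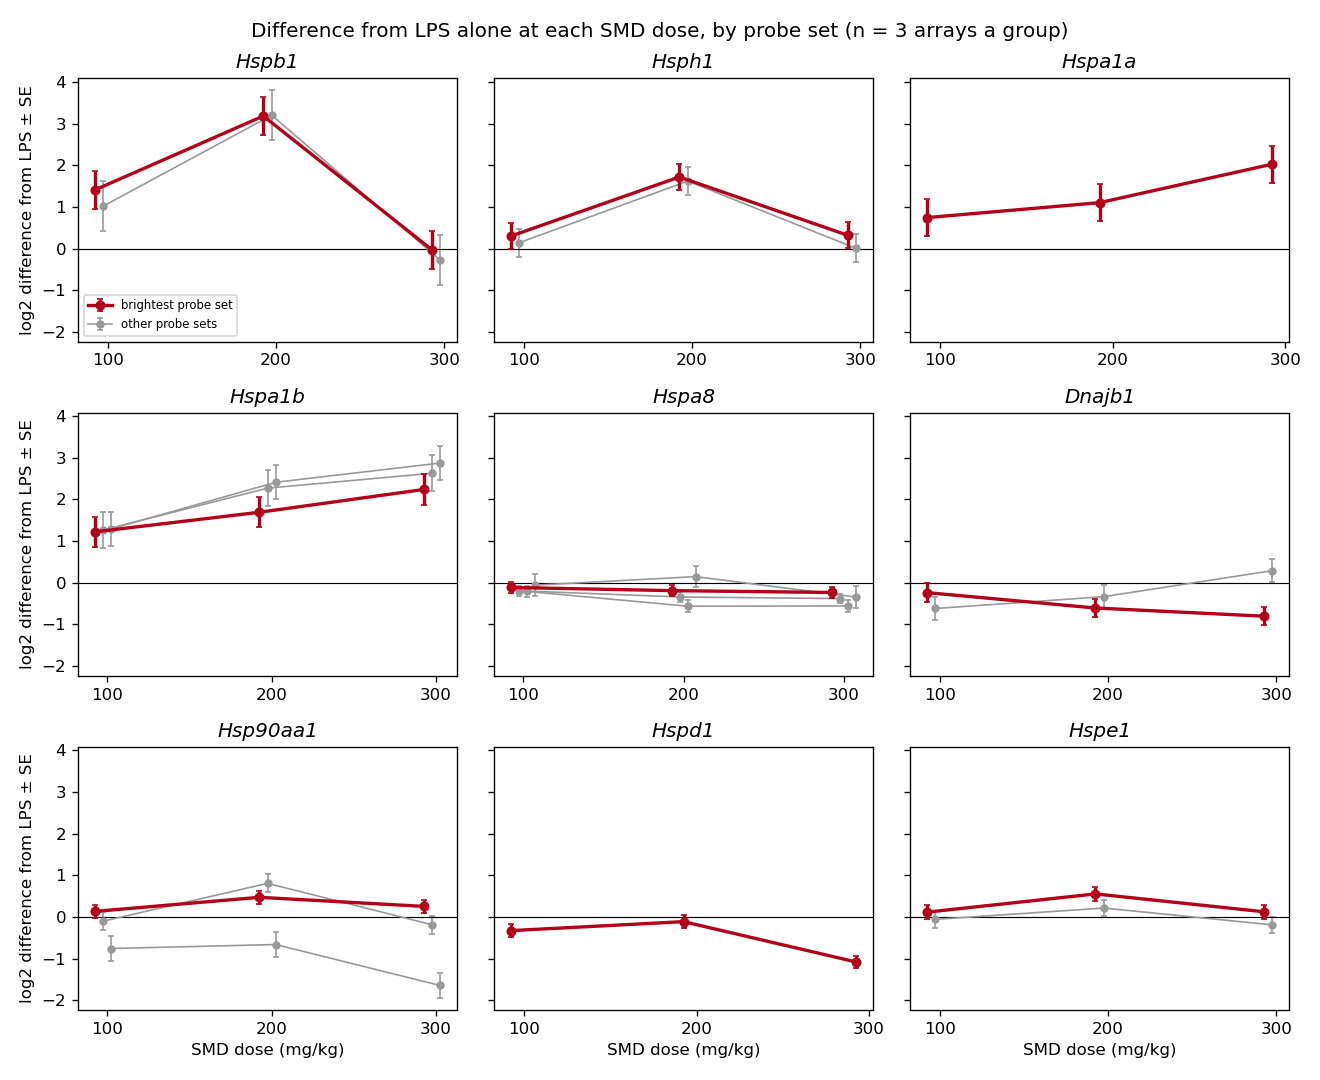
log2 difference from LPS alone against SMD dose in mg/kg for each tested probe set of the 9 genes; red is the brightest probe set, grey the others, and bars are limma's standard errors (n = 3 arrays a group). Hspb1 reaches 3.18 at 200 mg/kg and is at -0.02 at 300 mg/kg, whereas Hspa1b goes from 1.22 to 1.69 to 2.24.

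The difference between these shapes was also taken within each array, where any scaling of the whole array drops out. Hspb1 minus Hspa1b was -0.54 ± 0.19 at 200 mg/kg and -4.29 ± 0.87 at 300 mg/kg (SD, n = 3), a change of -3.75. Hsph1 minus Hspa1b went from -0.25 ± 0.23 to -2.19 ± 0.83, a change of -1.95. Neither pair overlapped between doses, nor did Hspd1 minus Hspe1 between LPS and 300 mg/kg. In each of these 3 tests the exact two-sided permutation p was 0.1 (0.1 adjusted over the 3), which is the smallest that 3 arrays against 3 allow; the pairs were chosen after their values were seen.

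**Figure D4:**
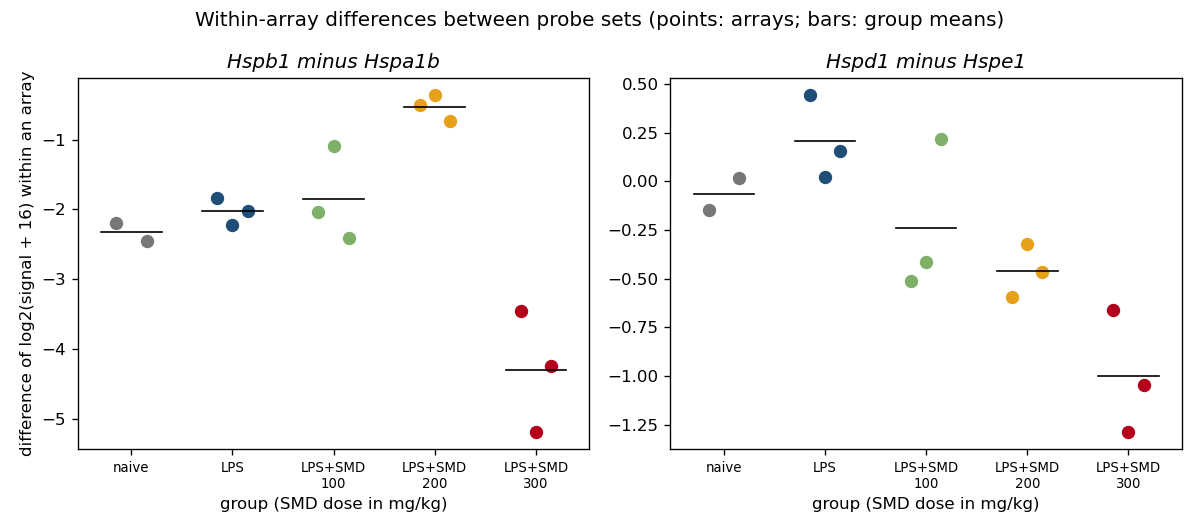
Difference of 2 genes within each array, in log2 units, by group; points are arrays and bars group means. Hspb1 minus Hspa1b averages -0.54 at 200 mg/kg and -4.29 at 300 mg/kg, and Hspd1 minus Hspe1 falls from 0.21 in LPS to -1.0 at 300 mg/kg.

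The genes nearest in pattern to Hspb1 and Hspa1b were named by the root-mean-square difference of log2 values, each centred on its own mean over the 14 arrays. For Hspb1 they were Met, Tpbg, Mctp2, Adm and Parp14, at 0.96 to 1.04. All 5 had their highest group mean at 200 mg/kg, for example 13500 for Adm against 12190 at 100 mg/kg and 4481 in LPS. For Hspa1b they were Hspa1a at 0.38, then Actb, Nlrp3, Zc3h12c and Zfand5 at 0.52 to 0.57. Their group means were higher at each higher dose. The Actb probe set nearest to Hspa1b, with a naive mean of 240, went from 327 in LPS to 1948 at 300 mg/kg. Actb is the gene of the actin control, and any other probe set of it was not compared here. Likeness over these arrays is a description only. The genes were picked for it on these same arrays, so a shared shape follows largely from the choice.

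Beyond the members, 84 other chaperone genes were listed by family, of which 81 had a probe set of their own and 74 were tested. LPS against naive called 16 higher and 6 lower, 100 mg/kg against LPS called 0, 200 mg/kg called 7 higher and 8 lower, and 300 mg/kg called 9 higher and 21 lower. These make 29.7%, 20.3% and 40.5% of the 74 in the comparisons with calls, beside 27.1%, 13.1% and 27.5% of all probe sets. The median of the 74 was 0.27 in LPS against naive, -0.03 at 200 mg/kg and -0.18 at 300 mg/kg. With the actin covariate, 1 was higher and 1 lower at 200 mg/kg and 5 higher and 11 lower at 300 mg/kg, and over single arrays left out the counts there ran from 6 to 12 higher and 15 to 24 lower. Over left-out arrays at 200 mg/kg they ran from 4 to 11 higher and 1 to 11 lower, with 1 lower without LPS replicate 1 and 2 lower without LPS replicate 3 or 200 mg/kg replicate 3. In LPS against naive 8 were higher without naive replicate 2.

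The cytosolic chaperonin TRiC and its helper prefoldin, which fold actin and tubulin, were higher after LPS and lower at the top SMD dose in part of their members. In LPS against naive 6 of 14 were called higher and 0 lower (median 0.46), where 10.3% of all probe sets were called higher and 16.8% lower. They included Cct3 at 1.37, Cct6a at 0.94, Tcp1 at 0.92 and Pfdn2 at 0.66. Without naive replicate 2 the number higher was 3, and quantile normalization gave 4 higher and 1 lower. At 300 mg/kg 0 were higher than in LPS and 8 lower (median -0.46), where 13.8% of all probe sets were called higher and 13.7% lower. Those lower included Pfdn1 at -1.11, Cct7 at -0.98, Cct3 at -0.68 and Cct6a at -0.63. The number lower was 4 under median scaling, 5 with the actin covariate, and 5 when any of 4 arrays was left out, namely LPS replicates 1 and 3 and replicates 2 and 3 of 300 mg/kg. Of 7 mitochondrial chaperone partners and proteases, 3 were also lower at 300 mg/kg (median -0.72), namely Grpel2 at -1.33, Grpel1 at -1.12, both exchange factors of mitochondrial Hsp70, and the protease subunit Clpp at -0.94; with the actin covariate 1 was lower.

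Of 13 genes of Hsp90 and its co-chaperones, 1 was higher and 7 lower at 300 mg/kg (median -0.61). Of all probe sets, 13.8% were called higher and 13.7% lower at this dose. Stip1, which bridges Hsp70 and Hsp90, was at -1.87, the ubiquitin ligase Stub1 at -1.65, the Hsp90 ATPase activator Ahsa1 at -1.41 and the kinase-loading Cdc37 at -1.31. At 200 mg/kg these 4 were also called lower (-1.42, -1.71, -0.96 and -1.73), where 6.39% of all probe sets were. But at that dose 0 of the 13 were lower with the actin covariate or with the mean of probe sets. The same held with replicate 1 of LPS or replicate 3 of 200 mg/kg left out. The number was 1 with replicate 3 of LPS left out, and 2 with either naive array or replicate 1 or 2 of 200 mg/kg left out. With the actin covariate the number lower at 300 mg/kg was 2, and without single arrays it ran from 4 to 8, with 4 without LPS replicate 1 or 300 mg/kg replicate 3. In LPS against naive 3 were higher, Fkbp5 at 2.05, Stip1 at 1.42 and Cacybp at 0.62, against 1 without either naive array. With 1 lower, the calls there made 30.8% of the 13, beside 27.1% of all probe sets.

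Of 16 J-domain proteins, the partners that deliver clients to Hsp70, 3 were higher and 1 lower at 300 mg/kg, together 25% beside 27.5% of all probe sets. Higher were Dnajb4 at 2.58 ± 0.27 (adjusted p = 2.56e-06, limma), Dnajb14 at 1.95 and Dnaja4 at 1.40. The mitochondrial Dnaja3 was lower at -1.93 ± 0.20 (adjusted p = 2.13e-06, limma). At 200 mg/kg these 4 were also called, in the order Dnajb4, Dnajb14, Dnaja4 and Dnaja3 (1.60, 2.10, 1.03 and -0.94). At that dose 0 of the 16 were called with the actin covariate, and the number higher fell from 3 to 1 without LPS replicate 1 or 3 or 200 mg/kg replicate 2 or 3. In the Hsp70 family, 2 of 7 were higher at 300 mg/kg, Hspa12a at 2.09 and Hspa4l at 1.71. Both had been lower in LPS than in naive (-3.0 and -1.90). The mitochondrial Hspa9 was lower at -0.65, so 42.9% of the 7 were called. Of 9 genes listed as Hsp70 nucleotide exchange factors and regulators, St13 (0.87) and Bag1 (0.51) were higher and Bag5 (-1.32) lower at 300 mg/kg, together 33.3%. That list includes Serpinh1, which is neither. Of the other heat-shock factors and their binding protein, 0 of 4 genes were called at that dose.

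**Figure D5:**
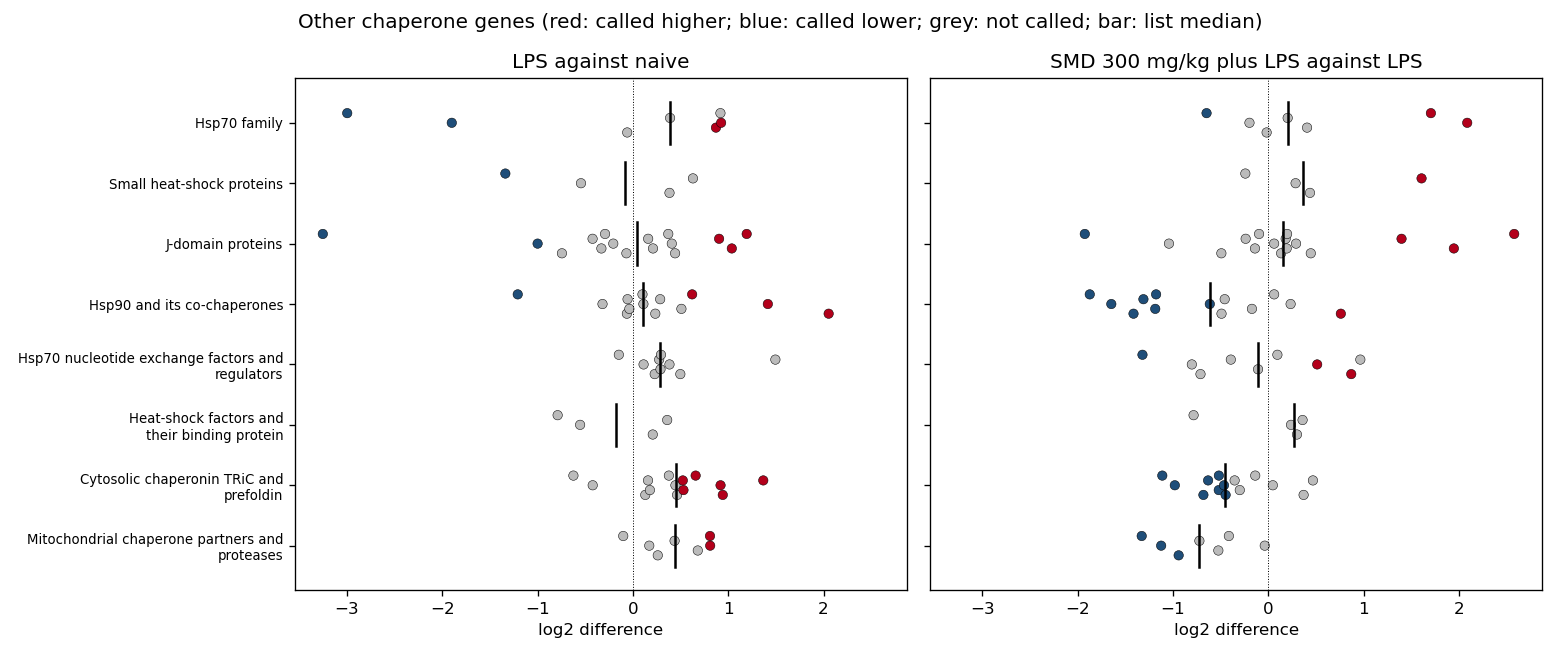
log2 difference of each of the 74 tested chaperone genes outside the members, by family, for LPS against naive (left) and 300 mg/kg SMD plus LPS against LPS (right); red and blue points were called higher and lower in limma, grey ones were not called, and bars are family medians. At 300 mg/kg the medians of TRiC and prefoldin (-0.46), of Hsp90 and its co-chaperones (-0.61) and of the mitochondrial partners and proteases (-0.72) lie below 0.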

How the data were processed

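RNA of peritoneal cells was hybridised to 14 arrays, 1 per sample, and samples were grouped by their titles. The authors deposited 1 linear intensity for each probe set. Per the submitters' processing notes they used MAS5, of unstated version. MAS5 scales each array, so a value is relative to the rest of its array, and detection calls were not used here. Names came from the platform annotation, updated with RefSeq; 34945 probe sets had 1 symbol, 932 several and 9160 none; 64 control probe sets were left out.

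Values were taken as log2(signal + 16), without further scaling, and the dimmest 40% of probe sets were left out (mean log2 under 5.64, a signal of about 33.9). This left 27022. With limma 3.58.1 (lmFit and eBayes with an intensity trend; R 4.3.3; package data.table, version 1.17.8) the 5 group means were estimated together from all 14 arrays; figures used Python 3.11.15, pandas 2.3.3 and matplotlib 3.10.9. Tests were two-sided, p-values were adjusted by Benjamini and Hochberg over all 27022, and called means an adjusted p under 0.05. A fold is 2 to the power of the log2 difference and understates changes of dim probe sets. The number of arrays limits the precision. The procedure was tested on simulated data, where it missed many of the changes put in, so a gene that was not called is not shown to be unchanged.

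Members, gene lists and tests were chosen with earlier results of these data known. The brightest probe set stood for a gene, except that a nearest gene was taken by its closest probe set. Of the other chaperones, up to 4 called genes per family with the smallest p were named, and 5 nearest genes for Hspb1 and Hspa1b. The within-array pairs and the repeats of the other chaperone counts were chosen after the data were seen. Deviations of same-numbered samples of different groups had correlations from -0.13 to 0.19 over 26 pairs (median 0.016, with 4 above 0.1). Those of differently numbered samples ran from -0.265 to 0.223 over 52 pairs (median -0.0099, with 2 above 0.1). Numbers were not used for pairing in the main fit.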

Additional observations from a re-analysis of the deposited data

How the results depend on the processing

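Member gene counts were recomputed under other pseudocounts (1 and 64), other filters, quantile normalization, median scaling, array weights, a fit of only the groups compared, the mean of a gene's probe sets, the actin 3'/5' ratio as a covariate, a replicate block, and without each array. With the actin covariate the called member genes numbered 1 in place of 4 at 200 mg/kg against LPS, 2 in place of 4 at 300 mg/kg, 0 in place of 1 between 100 and 200 mg/kg and 2 in place of 4 for the linear term, where Hspa8 is a gained call in both the 2 at 300 mg/kg and the 2 for the linear term. It was 7 in place of 5 for LPS against naive (with Hspe1 and Hsp90aa1), 4 in place of 3 between 200 and 300 mg/kg (with Hspe1), and 0 and 1 as before at 100 mg/kg and for curvature. The call between 100 and 200 mg/kg was also 0 with only the groups compared and with the mean of probe sets. Without single arrays the counts ran from 1 to 6 for LPS against naive, 0 to 1 at 100 mg/kg, 3 to 6 at 200 mg/kg, 3 to 4 at 300 mg/kg, 0 to 2 between 100 and 200 mg/kg, 2 to 3 between 200 and 300 mg/kg, 4 to 6 for the linear term and 0 to 1 for curvature. Of single-gene results, 753 of 792 under other settings and 967 of 1008 without an array kept their side of the threshold, and 0 called ones changed sign. The cause of these changes was not tested.

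With the replicate block, 4 member genes were called in LPS against naive and 3 at 200 mg/kg: Hspa1a (1.27; adjusted p = 0.0806, limma) and Hspe1 (0.55; adjusted p = 0.0544, limma) lost their calls, and the other counts were unchanged. Same-numbered samples share only a number.

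Calls of LPS against naive rest on both naive arrays. Hspb1 was not called without naive replicate 1 or 2 (adjusted p = 0.0632 and 0.0662, limma), Hspa1b and Hspa8 not without replicate 1 (adjusted p = 0.0654 and 0.139, limma), and Hspa1a not in 7 settings. Hspe1 gained a call there in 6 settings, and Hsp90aa1 at 200 mg/kg in 6.

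Calls over all probe sets moved as well. Against 3532 at 200 mg/kg, other settings gave 407 (actin covariate) to 5597 (array weights) and single arrays left out 1264 to 4605. For the other comparisons the pairs of ranges, first over settings and then over left-out arrays, were 3039 to 8183 and 5460 to 7949 at 300 mg/kg (7432 as reported), 3348 to 9712 and 4362 to 7783 for LPS against naive (7313), and 0 to 301 and 0 to 470 at 100 mg/kg (0). They were 42 to 691 and 8 to 456 between 100 and 200 mg/kg (304), 535 to 2284 and 381 to 1738 between 200 and 300 mg/kg (1370), 3327 to 8631 and 6292 to 8318 for the linear term (8107), and 4 to 306 and 0 to 474 for curvature (13). The gene-mean setting tests fewer features.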

Other observations

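Other chaperone genes also differed between the upper SMD doses. From 200 to 300 mg/kg, 2 of 74 were called higher, Hspa12a at 1.41 and the J-domain protein Dnajb4 at 0.98, and 4 lower, Dnaja3 at -0.99, Cacybp at -0.71 and the TRiC subunits Cct8 at -0.58 and Tcp1 at -0.48. These make 8.11% of the 74, beside 5.07% of all probe sets. Without single arrays the counts ran from 0 to 2 higher and 0 to 5 lower, with 0 of either without 300 mg/kg replicate 2, and under other settings from 0 to 2 higher and 2 to 10 lower. Either naive array, any of the 200 mg/kg arrays or 300 mg/kg replicate 3, left out, also gave 0 higher, and replicate 1 or 3 of 200 mg/kg or replicate 1 of 300 mg/kg gave 1 lower. At 200 mg/kg against LPS, Hspa4l was higher at 1.71, St13, which assists Hsp70, at 0.79 and Ahsa2 at 1.05, while Pfdn1 was lower at -1.34 and Grpel2 at -0.98. With the actin covariate 1 of the 74 was higher and 1 lower at that dose.

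Of 4 small heat-shock proteins tested besides Hspb1, 1 was called at 300 mg/kg (25%, beside 27.5% of all probe sets). It was Hspb11 at 1.61, which is a component of intraflagellar transport despite its name. Hspb11 was also called at 200 mg/kg (1.05) and was lower in LPS than in naive (-1.34). The lens crystallins Cryaa and Cryab, Hspb3, Hspb8 and Hspb9 were below the filter on dim probe sets.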
